A study of Rattus norvegicus with 2 samples.

Results

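Chromosome 10 of the rat was examined for 8-oxoguanine (8-oxoG) in normal kidney. Its members were chosen by position. They are the array probes that the files place on chromosome 10 of rn4 and that carried no outlier flag on either array, with repeated spots of a probe averaged. In this way 11837 of 235872 probes (5.02%) were obtained, from base 182 to base 110717437, and 231247 of all probes lie on chromosomes 1 to 20 and X. The samples were the kidneys of 2 untreated male rats (strain spelled Wister in the labels) at 5 weeks of age, each hybridized to 1 array, and both rats form the single group. DNA cut with BmgT120I was immunoprecipitated with the 8-oxoG antibody N45.1 and labelled with Cy5, whereas input DNA of the same tissue was labelled with Cy3, with 800 ng per labelling. There was no dye swap and no treated group, and array and rat cannot be told apart. The DNA came from whole kidney, so the levels are averages over its cell types.

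8-oxoG is guanine oxidized at one position of its ring by reactive oxygen species. It can pair with adenine as well as cytosine, and a lesion that persists through replication can therefore give a G to T transversion. In the nucleus it is removed mainly by the glycosylase OGG1, which starts base excision repair. The 8-oxoG level of a probe is given here as log2(IP/input) of the processed intensities, centred on the median of each array. A level of 0 is thus the median probe of the array, not an absence of 8-oxoG, and a negative level means fewer immunoprecipitated copies relative to input than at the median probe. Errors are SDs over the 2 rats.

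The mean 8-oxoG level of chromosome 10 was -0.19 in replicate 1 and -0.20 in replicate 2. Both rats were below 0, and their difference of 0.0064 was among the smallest of the 20 autosomes, for which replicate 1 minus replicate 2 ranged from -0.06 to 0.11. The SD of chromosome 10, 0.0046, is therefore a poor guide to the error of a chromosome mean. The other autosomes averaged -0.0061 in replicate 1 and -0.08 in replicate 2. Chromosome 10 minus the other autosomes was thus -0.19 in replicate 1 and -0.12 in replicate 2, with a mean of -0.15 ± 0.05 (SD, n = 2). The direction was the same in 2 of 2 rats, and an exact sign-flip test of 2 arrays cannot go below a two-sided p of 0.5, so no test was made. With normexp background correction the difference was only -0.03.

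**Figure D1:**
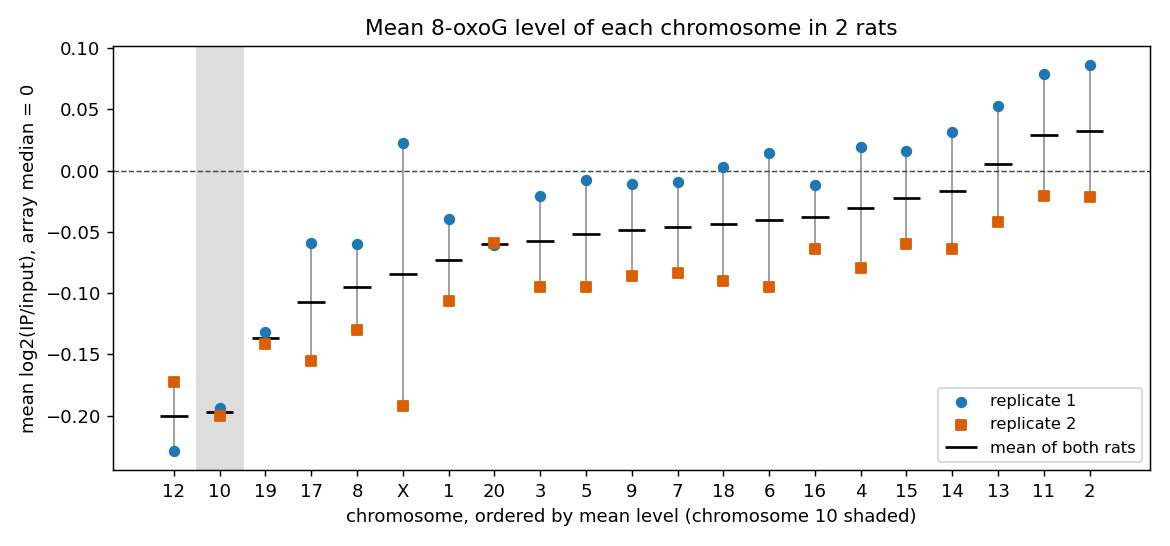
Mean 8-oxoG level, as log2(IP/input) with the array median at 0, of each of 21 chromosomes in replicate 1 (circles) and replicate 2 (squares), with black bars at the mean of both rats. Chromosome 10 (shaded) lies at -0.19 and -0.20, next to chromosome 12, and both rats are below 0.

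By the mean of both rats, chromosomes 12 and 19 were the other low ones. Chromosome 12 had levels of -0.23 and -0.17 in replicates 1 and 2, and chromosome 19 had levels of -0.13 and -0.14. Chromosome 10 was the second lowest of 21 chromosomes in replicate 1 and the lowest in replicate 2. In replicate 2 chromosome X, at -0.19, was below chromosome 12, and chromosome 17, at -0.16, was below chromosome 19. Chromosome 10 minus chromosome 12 was 0.03 in replicate 1 and -0.03 in replicate 2, so these 2 chromosomes could not be ordered. Chromosome 10 minus chromosome 19 was -0.06 in both rats.

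The lower level was found throughout the distribution of probes. The median level on chromosome 10 was -0.16 in replicate 1 and -0.10 in replicate 2, against 0.0042 and 0.0028 on the other autosomes. Chromosome 10 minus the other autosomes was -0.11 and -0.09 at percentile 5, and -0.31 and -0.19 at percentile 95. The difference was thus larger at the upper end of the distribution in both rats. Probes above a level of 1 made up 7.85% of chromosome 10 in replicate 1 and 13.2% in replicate 2, against 13.7% and 16.4% on the other autosomes. Probes below -1 made up 16.5% and 20.7%, against 13.3% and 18.7%. On both arrays at once, 333 of the 11837 probes (2.81%) were above 1, where the share of all placed probes was 5.84%, and 660 (5.58%) were below -1, where it was 4.67%.

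Both channels enter the level, and most of the difference between chromosome 10 and the other autosomes was found in the input channel. The mean log2 input intensity of chromosome 10 was 6.40 in replicate 1 and 6.05 in replicate 2, against 6.20 and 5.83 on the other autosomes. The input was thus brighter by 0.20 and 0.22. The mean log2 IP intensity was 6.22 and 5.91, against 6.20 and 5.81, a difference of 0.01 in replicate 1 and 0.10 in replicate 2. The mean log2 IP signal of chromosome 10 was therefore not lower than that of the other autosomes in either rat. The median processed IP intensity was 92.7 and 77.6, against 94.0 and 73.1, and was lower in replicate 1 only. Chromosome 10 had the brightest input of 21 chromosomes in replicate 1, by mean log2 intensity.

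To compare probes of equal input intensity, the probes of each array were placed in 5 bins. The bins hold equal numbers of probes of all autosomes, chromosome 10 included. Levels fell with input intensity on chromosome 10 and elsewhere, and since input is the denominator of the ratio a fall of this kind is partly built in. In the dimmest bin chromosome 10 averaged 0.05 and 0.13, against 0.27 and 0.34 on the other autosomes, a difference of -0.21 ± 0.0095 (SD, n = 2). In the second bin the difference was -0.22 ± 0.09, and in the third it was -0.14 ± 0.09. In the brightest bin chromosome 10 averaged -0.44 and -0.67, against -0.40 and -0.66, and the difference was -0.02 ± 0.02, no larger than the spread between the rats. Chromosome 10 was lower in each of the 5 bins in both rats, but in replicate 2 the differences in the bins 4 and 5 were only -0.01 and -0.0048. After removal of the trend of the ratio on input intensity the difference between chromosome 10 and the other autosomes was -0.13.

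**Figure D2:**
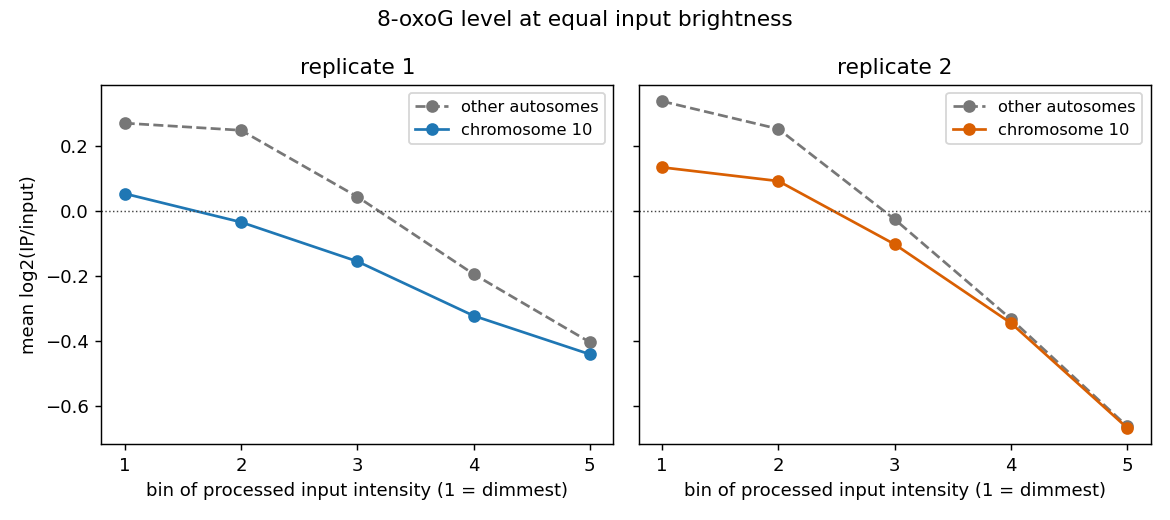
Mean log2(IP/input) in 5 bins of processed input intensity, from dimmest (1) to brightest (5), for chromosome 10 (solid) and the other autosomes (dashed) in each rat. Chromosome 10 minus the other autosomes is -0.22 and -0.20 in the dimmest bin, and the curves nearly meet in the brightest one.

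Chromosome 10 is rich in genes. RefSeq annotation of the later assembly GRCr8 places 1788 protein-coding genes on it, which are 7.75% of the genes on chromosomes 1 to 20 and X, whereas it holds 5.12% of the probes placed on these chromosomes. This corresponds to 15.1 genes per 100 probes, second to 15.2 on chromosome 19 and followed by 14.5 on chromosome 12. The value over all chromosomes was 9.98. This measure, called gene density here, also depends on probe spacing, which was closest on chromosome 10, so the order per Mb may differ. Chromosomes 10, 12 and 19 had the lowest 8-oxoG levels in replicate 1 and by the mean of both rats. In replicate 2, however, chromosomes X and 17 were below chromosome 19. Across the 20 autosomes Pearson's r between genes per 100 probes and the mean level was -0.85 in replicate 1 and -0.68 in replicate 2, and Spearman's rho was -0.85 and -0.59. Without chromosome 10, r over the other 19 autosomes was -0.81 and -0.60. For the mean input brightness, taken from replicate 1, r with the level was -0.82 in replicate 1 and -0.96 in replicate 2. This was close to the value for gene density in replicate 1 and further from 0 in replicate 2, and gene density and input brightness cannot be told apart over these chromosomes. The autosomes share 2 libraries and differ in base composition, and these correlations are descriptions.

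**Figure D3:**
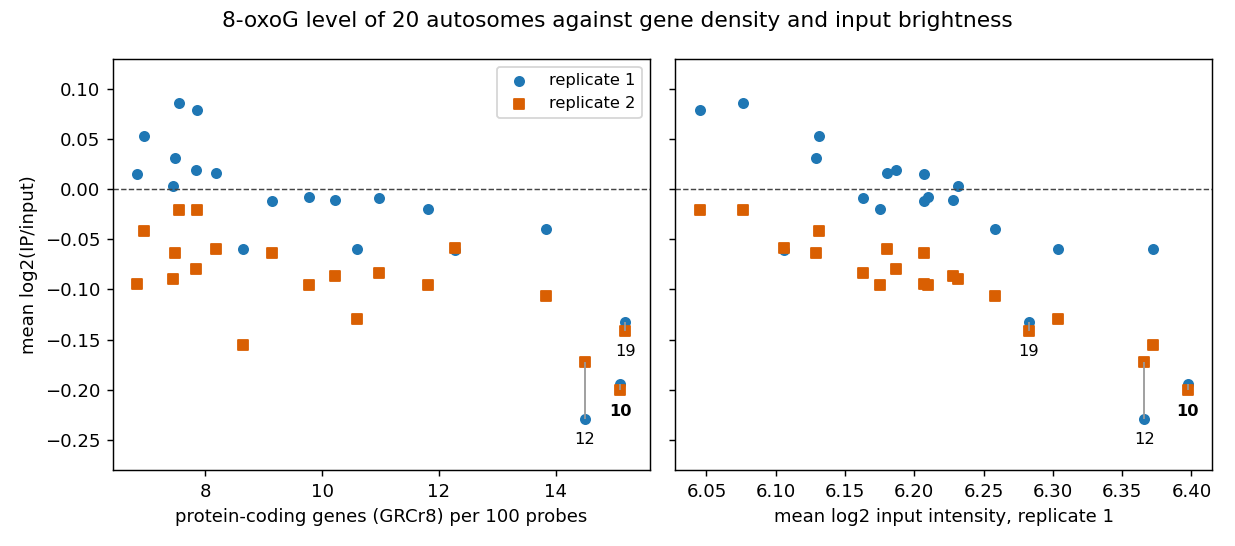
Mean log2(IP/input) of 20 autosomes in replicate 1 (circles) and replicate 2 (squares) against protein-coding genes of GRCr8 per 100 probes (left) and against the mean log2 input intensity in replicate 1 (right). Chromosomes 10, 12 and 19 are labelled at their lower value and lie at the gene-dense end, and chromosome 10 also has the brightest input, at 6.40.

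Promoters of chromosome 10 also differ in base composition. Over 2236 RefSeq promoters of chromosome 10 in GRCr8, taken from 250 bases before to 50 bases after the gene start, the median GC content was 55.0%, the highest of 21 chromosomes, against 51.7% over all 33148 promoters. The recognition sequence of BmgT120I, GGNCC, which reads the same on both strands, was found in 74.5% of the promoters of chromosome 10 and in 68.4% of all promoters. The part of base composition and of cut sites in the levels was not tested.

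The chromosome carries several gene clusters of known function. The lists and families that follow were chosen by hand as known or thought to lie on it. Hoxb, keratin and olfactory receptor symbols were matched by name over all protein-coding genes, and the other lists were written symbol by symbol. Because of this choice no count is to be read against the 7.75% of all genes. The counts do not show that a function is concentrated there. The alpha-globin cluster (Hba-a1, which encodes a subunit of haemoglobin, and its relatives) had 7 of 10 searched symbols there. The Th2 cytokine cluster with Il4 and Il13, which direct type 2 immune responses, the CC chemokine cluster with Ccl2, which attracts monocytes, and the Hoxb cluster of developmental regulators had 10 of 10 each. All 6 symbols of the sarcomeric myosin heavy chains and all 5 of the GABA-A receptor subunits were found there, as were 27 of 55 keratin symbols and 136 of 1278 olfactory receptor symbols. Of 20 symbols of large or isolated neuronal and developmental genes 17 were found, among them Rbfox1, a splicing regulator of neurons. Of the 15 symbols searched for DNA repair 14 were found, including Nthl1, a glycosylase of base excision repair for oxidized pyrimidines, and of the 16 searched for kidney function 14 were found, including Wnk4, a kinase that regulates sodium chloride transport in the distal tubule. The assembly of this annotation is not that of the probes, so no 8-oxoG level was assigned to a gene.

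The probes started at a mean interval of 9354 bases and a median of 6157 bases. The mean interval was the shortest of 21 chromosomes, followed by 10084 bases on chromosome 12 and 10438 bases on chromosome 19. The longest gap was 342598 bases, and 17 intervals exceeded 100 kb. On both arrays, 9511 probes (80.3%) had IP and input signals well above background, against 78.2% of all placed probes. No spot of chromosome 10 was saturated, and 17 of its 11948 spots were left out for outlier flags. The number of arrays, 2, limits the precision.

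To follow the level along the chromosome, chromosome 10 was divided into 111 fragments of 1 Mb, which held between 31 and 195 probes with a median of 108. The averaged log2(IP/input) ranged from -0.47 to 0.38, its median was -0.21, and its quartiles were -0.28 and -0.13. Over all 2731 fragments of chromosomes 1 to 20 and X the median was -0.07. The SD over fragments was 0.17 on chromosome 10 and 0.27 over all fragments, and among the 21 chromosomes only chromosome 12 had a smaller SD. On both arrays, 92 of the 111 fragments (82.9%) were below 0 and 11 (9.91%) were above 0, whereas 48.9% of all fragments were below and 32.8% above.

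Each fragment was tested against 0 with limma's moderated test over all 2731 fragments with Benjamini-Hochberg adjustment, in which the pooled spread between the arrays gave every fragment a standard error of 0.10. The number of probes in a fragment does not enter this error, so p may be too small for fragments with few probes. On chromosome 10, 42 fragments (37.8%) were below 0 at an adjusted p threshold of 0.05, where 20.4% of all fragments were called, and 5 (4.50%) were above 0, where 20.9% were called. The share called below 0 was the highest of 21 chromosomes, followed by 35.0% on chromosome 19, 27.7% on chromosome 12 and 26.9% on chromosome 8. The share called above 0 was the second lowest, next to 4.26% on chromosome 12 and 5.10% on chromosome 17. A called fragment had a mean level of at least 0.24 in size. These calls depended on the processing. Limma after normexp left 6 fragments below 0, where 3.63% of all fragments were called, and 0 above, where 0.26% of all were called. Normexp changed the background correction, the dye normalization and, by its offset, the scale of the ratios, and these parts were not separated. At an unadjusted p threshold of 0.05 limma after normexp gave 53 below and 0 above. The share of all fragments at this threshold is not given here, so 53 cannot be read as unusual. With normexp the median of all fragments was itself below 0, at -0.06. Medians over probes in place of means left 15 below 0, where 8.28% of all fragments were called. Removal of the trend on input intensity left 35 below and 1 above, where 16.7% and 14.2% of all fragments were called.

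**Figure D4:**
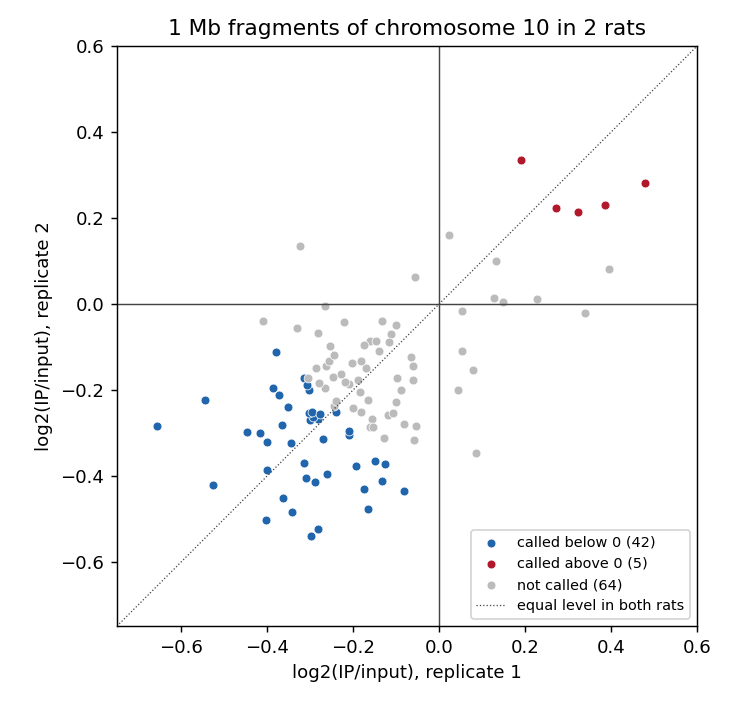
Averaged log2(IP/input) of the 111 fragments of 1 Mb of chromosome 10 in replicate 1 (horizontal) and replicate 2 (vertical), coloured by limma's call at an adjusted p threshold of 0.05. The 42 fragments called below 0 (blue) and the 5 called above 0 (red) lie on opposite sides of 0, and 8 fragments have opposite signs in the rats.

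The highest fragment lay between bases 24000001 and 25000000, with 99 probes and levels of 0.48 in replicate 1 and 0.28 in replicate 2, a mean of 0.38 ± 0.14 (SD, n = 2, adjusted p = 0.0020). The fragment from 80000001 to 81000000 reached 0.38 and 0.23 (adjusted p = 0.013). The fragment from 27000001 to 28000000 reached 0.32 and 0.21 (adjusted p = 0.031). All 3 were above 0 in both rats and lower in replicate 2. The fragment from 79000001 to 80000000 went the other way, with 0.19 in replicate 1 and 0.34 in replicate 2 (adjusted p = 0.034). The last one called, from 23000001 to 24000000, had 0.27 and 0.22 over 45 probes (adjusted p = 0.045). The 5 fragments are thus neighbours in pairs, except that from 27 to 28 Mb.

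The lowest fragment lay between bases 76000001 and 77000000, with 126 probes and levels of -0.53 in replicate 1 and -0.42 in replicate 2, a mean of -0.47 ± 0.08 (SD, n = 2, adjusted p = 0.00012). The fragment from 58000001 to 59000000 had -0.66 and -0.28 (adjusted p = 0.00014). The rats differed most on this one among the 10 named fragments, with an SD of 0.26. The fragments from 97000001 to 98000000, with -0.40 and -0.50, from 70000001 to 71000000, with -0.30 and -0.54, and from 90000001 to 91000000, with -0.34 and -0.49, were lower in replicate 2 (adjusted p = 0.00025, 0.00069 and 0.00081). With a standard error of 0.10 the 5 lowest means, between -0.47 and -0.41, could not be ordered.

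Fragments above and below 0 differed in input intensity as well. The median of the mean log2 input was 5.59 in replicate 1 and 5.12 in replicate 2 for fragments called above 0, 6.58 and 6.22 for those called below 0, and 6.38 and 6.04 for the others. Fragments called above 0 also held fewer probes, with a median of 64 against 105. Across the 111 fragments Pearson's r between input and level was -0.48 in replicate 1 and -0.55 in replicate 2, and Spearman's rho was -0.30 and -0.43. The input channel itself was nearly the same in both rats, with r of 0.99. After removal of the trend on input intensity the highest fragment, from 24 to 25 Mb, still passed the threshold at a level of 0.28 (adjusted p = 0.031), and that from 80 to 81 Mb did not, at 0.24 (adjusted p = 0.059). The other 3 high fragments fell to between 0.14 and 0.19 without passing. Each of the 5 lowest fragments passed after this removal, with levels from -0.47 to -0.37. With normexp 2 of the 10 named fragments passed, those from 58 to 59 Mb at -0.19 (adjusted p = 0.0062) and from 97 to 98 Mb at -0.16 (adjusted p = 0.030).

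The smoothed profile, in which the probes within 500 kb in both directions were averaged at each probe, showed long 8-oxoG-depleted stretches broken by short 8-oxoG-rich ones. A region was taken as a run of consecutive probes on one side of 0. Depleted regions covered 88.1% of the length of chromosome 10 and rich regions 11.2%. Chromosome 12 had a larger depleted share, 89.2%, and chromosome 19 followed with 79.1%. Of the regions of 1 Mb or longer, 11 were depleted and 5 were rich. Each rat alone gave a like picture of the share, with 84.6% depleted in replicate 1 and 87.9% in replicate 2, but not of the number of long regions, of which 17 and 21 were depleted and 5 and 3 rich.

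**Figure D5:**
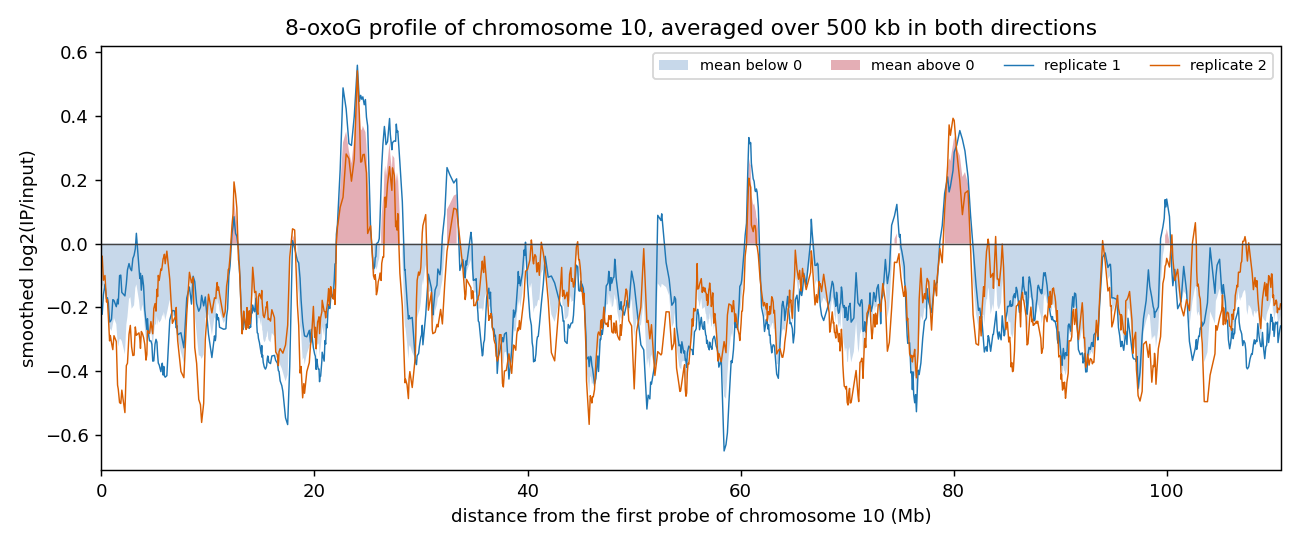
Smoothed log2(IP/input) of chromosome 10, averaged over the probes up to 500 kb away on each side, against the distance from the first probe, in replicate 1 and replicate 2 (lines) and for their mean (shaded, blue below 0 and red above). Both lines run below 0 over most of the chromosome, and the highest rise, at 24 Mb, is present in both rats.

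The largest 8-oxoG-rich region spanned 3.31 Mb between bases 22054902 and 25365954. Its 210 probes averaged 0.40 in replicate 1 and 0.23 in replicate 2, a mean of 0.32 ± 0.13 (SD, n = 2), and the smoothed level peaked near 24 Mb at 0.58 and 0.54. A region of 1.98 Mb followed between bases 26186584 and 28163252, with 0.34 in replicate 1 and 0.10 in replicate 2. Its smoothed level was above 0 at each probe in replicate 1 and at 71.9% of its probes in replicate 2. The region between bases 78940527 and 81669612 spanned 2.73 Mb and was the most alike in the rats, with 0.26 and 0.23 and a mean of 0.25 ± 0.02 (SD, n = 2). The remaining 2 regions lay between bases 32323212 and 33623316, with 0.24 and 0.12 over 55 probes, and between bases 60437441 and 61708230, with 0.18 and 0.09 over 161 probes. All 5 had levels above 0 in both rats, as the smoothing that defined them favours.

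Rich regions were short on this chromosome. The longest rich region was shorter only on chromosome 12, at 1.12 Mb, and on the other chromosomes the longest spanned between 5.06 Mb (chromosome 20) and 17.9 Mb (chromosome 5). Probes were also sparse in 3 of the 5 rich regions, with a mean interval of 15842 bases in the largest, 18565 bases in that near 80 Mb and 24075 bases in that near 33 Mb, against 9354 bases over the chromosome. All 5 rich regions had a dimmer mean log2 input than chromosome 10 as a whole in both rats. The mean log2 IP was also below that of the chromosome in all 5 in replicate 2, whereas in replicate 1 it was above it in the regions near 33 Mb and 61 Mb, at 6.32 and 6.33 against 6.22. In the largest one the mean log2 input was 5.66 in replicate 1 and 5.25 in replicate 2, against 6.40 and 6.05 over chromosome 10, and the mean log2 IP was 6.08 and 5.54, against 6.22 and 5.91. With the trend on input removed its level was 0.33 and 0.14, and with normexp 0.04 and 0.0051. The part of input intensity in these levels was not tested further.

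The depleted regions of 5 Mb or longer were 7 in number. The longest, between bases 33645586 and 60434892, held 2906 probes with levels of -0.24 in replicate 1 and -0.23 in replicate 2. It extended over 26.8 Mb, but its length rested on the average of both rats. In single rats the smoothed level crossed 0 inside it, and the longest depleted regions of the chromosome were 12.1 Mb in replicate 1 and 9.71 Mb in replicate 2. That of replicate 1 lay elsewhere, between bases 81930884 and 94018626. With only probes well above background the longest one was 15.7 Mb, and in the table of the authors without centring it was 15.6 Mb. Both overlapped the region of 26.8 Mb. With a window of 250 kb the longest one was 9.03 Mb and lay elsewhere, between bases 101684518 and 110717437. The lowest point of the region of 26.8 Mb, near 58.6 Mb, had smoothed levels of -0.68 and -0.37.

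The other depleted regions had mean levels within a narrow range. They lay between bases 182 and 12172330 (-0.23 and -0.24 in replicates 1 and 2), 12829320 and 17922857 (-0.31 and -0.21), 66741323 and 74305814 (-0.17 and -0.29), 81700205 and 93997809 (-0.24 and -0.25), 94219883 and 99782363 (-0.23 and -0.28), and 100515588 and 110717437 (-0.27 and -0.17). The means of all 7 were between -0.26 and -0.22, and the spread between the rats, with SDs from 0.0057 to 0.09, did not allow them to be ordered. Single probes were mixed within them. In the longest region 59.6% of the probes were below 0 in replicate 1 and 56.4% in replicate 2. The depletion is therefore described for the average of a region only. Single probes vary widely around that average, so these shares cannot show whether every probe was shifted.

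Because regions set on the mean of both rats follow both of them, regions were also set on one rat and measured in the other. The 5 rich regions of 1 Mb or longer set on replicate 1 averaged 0.14 in replicate 2, against 0.30 in replicate 1, and all 5 were above 0 there, from 0.06 to 0.21. The 3 set on replicate 2 averaged 0.36 in replicate 1, against 0.24 in replicate 2, and all 3 were above 0. The 17 depleted regions set on replicate 1 averaged -0.23 in replicate 2, and each of them was below 0. Of the 21 set on replicate 2, 20 were below 0 in replicate 1, with a mean of -0.23. These counts are to be read against the chromosome itself, of which 84.7% of the 1 Mb fragments were below 0 in replicate 1 and 88.3% in replicate 2, with mean levels of -0.19 and -0.20, so they do not show that the positions of depleted regions were shared. The rich regions lay on the side of 0 that most fragments did not take. Both arrays have the same probes and the same dye orientation.

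In stretches of 10 Mb, the level was near 0 in 1 stretch only. The 1074 probes from 20 to 30 Mb averaged 0.0073 in replicate 1 and -0.07 in replicate 2, and 3 of the 10 fragments there were called above and 3 below 0. The other stretches lay between -0.28 and -0.16. The lowest were those from 50 to 60 Mb, with -0.30 and -0.25, and from 90 to 100 Mb, with -0.25 and -0.31. Of the 10 fragments in each, 6 and 5 were called below 0 and none above. The first 10 Mb, with -0.22 and -0.26, and the stretch from 100 to 110 Mb, with -0.26 and -0.16, were also low, so both ends of the chromosome were below 0.

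Neighbouring fragments of 1 Mb differed most in level at a few positions. The largest step between neighbouring fragments was at 28 Mb, where the level went from 0.32 to -0.08 in replicate 1 and from 0.21 to -0.44 in replicate 2, a step of -0.53 ± 0.17 (SD, n = 2). At 25 Mb it went from 0.48 to -0.11 and from 0.28 to -0.07, a step of -0.47 ± 0.17. At 22 Mb it rose from -0.18 to 0.40 in replicate 1 and from -0.13 to 0.08 in replicate 2, a step of 0.40 ± 0.26. A single raised fragment from 12 to 13 Mb, with 0.02 and 0.16 and not called above 0, stood between neighbours at -0.28 and -0.28. At 79 Mb the level rose from -0.12 to 0.19 in replicate 1 and from -0.09 to 0.34 in replicate 2. This was a step of 0.37 ± 0.08. Around the lowest fragment, at 76 and 77 Mb, the steps were -0.36 ± 0.03 and 0.35 ± 0.05, and the neighbours, at -0.12 and -0.12, were also below 0. Each of these steps had the same direction in both rats. They were chosen as the largest of the chromosome, so they do not show how abrupt its other changes of level were.

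By correlation, the rats resembled each other less along chromosome 10 than along most chromosomes. The share of its 1 Mb fragments with the same sign in both rats was 92.8%, against 82.4% on the other autosomes. Most of its fragments were below 0 in each rat (84.7% and 88.3%, against 51.2% and 62.5% on the other autosomes). Such one-sided levels by themselves raise the share of equal signs, so this share does not show closer agreement of the rats. Over the 111 fragments of chromosome 10 Pearson's r was 0.61 and Spearman's rho was 0.43. Among the 21 chromosomes only chromosome 17 had a lower r, at 0.53. Over the fragments of all other autosomes r was 0.81. The chromosome also had a smaller range of levels to correlate, as the SD over fragments given above shows. On chromosome 10, Pearson's r rose with the length of averaging from 0.26 for single probes to 0.44 for 200 kb, 0.50 for 500 kb and 0.73 for 2 Mb. On the other autosomes it was 0.34, 0.59, 0.72 and 0.87. Spearman's rho on chromosome 10 did not rise from 200 kb on, with 0.40 for 200 kb, 0.37 for 500 kb and 0.39 for 2 Mb. On the other autosomes rho was 0.59, 0.72 and 0.85 at these lengths. Between the level of one rat and that of the other 1 Mb away, r was 0.33 on average, at 2 Mb it was 0.15, and at 5 Mb it was 0.0092. Positions are not replicates, and no p is given for these values.

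The fragments of 200 kb gave the same picture at a finer scale. Of 550 such fragments, with a median of 21 probes, 75.8% were below 0 in replicate 1 and 74.0% in replicate 2, against 48.6% and 56.5% on the other autosomes. The share for the mean of both rats was 78.0%, against 53.4%. Both rats were below 0 in 348 fragments (63.3%), where this held for 39.4% of all fragments, and both were above 0 in 74 (13.5%), where it held for 32.6%.

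A few fragments of 1 Mb differed in sign between the rats. There were 8, with limma's adjusted p from 0.20 to 0.99. The sign was the same in both rats for 92.8% of the fragments of chromosome 10, against 82.4% on the other autosomes. As most fragments of chromosome 10 were below 0 in each rat, this does not show closer agreement. The widest gaps were found between 102000001 and 103000000, with -0.32 in replicate 1 and 0.13 in replicate 2, and between 52000001 and 53000000, with 0.09 and -0.35 over 44 probes. The fragment between 26000001 and 27000000, which belongs to the second rich region, had 0.34 and -0.02 over 125 probes. Its adjusted p was 0.20, so the rich region from 26 to 28 Mb rested mostly on its second fragment in replicate 2.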

How the data were processed

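The members, lists and alternatives were chosen with earlier results of these data known. The authors scanned the arrays and made the processed intensity of both channels with Agilent Feature Extraction 10.5.1.1 (background subtraction, detrending, dye normalization). The deposited files also hold log10 ratios, intensities before dye normalization, spot flags, and spot and background intensities, and the deposited series table holds log2 ratios, equal to those of the processed intensities and not centred. Here log2 ratios were centred on each array's median, with no loess, and averaged per probe after 305 flagged spots were left out. Regions follow the study's smoothing. The text names the 5 fragments of 1 Mb at either extreme (minimum 40 probes, 1 sign in both rats) and the regions of 5 Mb or longer or the 3 longest of a kind. Steps and other fragments given were chosen after their values were seen. limma 3.58.1 (R 4.3.3) tested fragments against 0, after a check on simulated data. With 1 residual degree of freedom per fragment the spread was pooled over fragments completely. Python 3.11.15, numpy 2.4.6, pandas 2.3.3, scipy 1.17.1 and matplotlib 3.10.9 were used. Coordinates are rn4, for which no genome, annotation or probe sequence was used here. Planned results on genes, genic probes and gene numbers per fragment were therefore not run, and GRCr8 tables served for gene counts and promoter composition per chromosome only. Normexp (offset of 50) used median signals, without the detrending and dye normalization of the processed intensities.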

Additional observations from a re-analysis of the deposited data

How the results depend on the processing

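The level of chromosome 10 stayed below that of the other autosomes, and below 0, under each alternative run, but its size and the counts moved. With normexp background correction the mean level was -0.085 and the difference from the other autosomes -0.026. The offset of normexp draws ratios towards 0, so these sizes are not on the scale of the main setting. By limma 6 fragments of 1 Mb were then below and 0 above 0, where 3.63% and 0.26% of all were called. Without adjustment there were 53 and 0, for which no share over all fragments is given here. In number, 6 depleted and 3 rich regions of 1 Mb or longer remained. The longest depleted one was 29.7 Mb, but it was another region, between bases 80969470 and 110717437. Of the length 94.7% was depleted, and 88.2% of 200 kb fragments were below 0. The mean level was -0.17 before dye normalization, -0.16 with probes well above background, -0.16 in the authors' table without centring, -0.19 with the trend on input removed and -0.13 as a median over probes, each beyond the small SD of 0.0046. The share of 200 kb fragments below 0 was 74.4% before dye normalization, 74.7% with probes well above background and 75.3% in the authors' table. Fragments above 0 numbered 1 of 111 with the trend removed (14.2% of all fragments called), against 5 of 111 in the main setting. With fragments of 2 Mb they numbered 2 of 56 (21.9% of all), so fewer were also tested. Levels beyond 0.25 on both arrays left 1 above and 24 below 0, for which no share over all fragments is given here. Medians over probes left 15 below 0 (8.28% of all fragments called).

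A window of 250 kb gave 26 depleted regions, 84.4% depleted length and a longest region of 9.03 Mb. One of 1 Mb gave 5 depleted and 2 rich regions, 90.6% and 29.2 Mb. Windows join or split regions by construction. These longest regions began at bases 101684518 and 81491778 and ended at base 110717437, so neither was the longest one of the main setting. The longest depleted region was 15.7 Mb with probes well above background, 15.6 Mb in the authors' table and 12.3 Mb with the trend removed, an alternative for regions added after seeing the data. Without one replicate, depleted regions numbered 17 to 21, rich ones 3 to 5, the longest depleted one was 9.71 to 12.1 Mb, the depleted share 84.6% to 87.9%, the share of 200 kb fragments below 0 74.0% to 75.8% and the difference from the other autosomes -0.19 to -0.12. Pearson's r between the rats was 0.26 for single probes, 0.44 for 200 kb, 0.50 for 500 kb and 0.73 for 2 Mb, in place of 0.61. Spearman's rho was 0.40 for 200 kb and 0.39 for 2 Mb. For the 20 named levels, 120 alternative values kept their sign, 79 within the spread between the rats or on their side of the threshold, 31 beyond that spread, and 10 no longer past the threshold, 8 of them with normexp and 2 with medians over probes. These values leave out removal of the trend, under which 4 of the 5 high fragments lost their call (adjusted p = 0.059, 0.29, 0.15 and 0.14) and the 5 low ones kept it. The causes were not tested, except where given.

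Calls with only 1 array were not run, as limma then has no degrees of freedom left. Alternatives planned for genes, genic probes and gene numbers were not run. No paired analysis was possible because both arrays belong to the same group. Dim signals limit the values of the 19.7% of probes not well above background on both arrays.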
